A study of Mus musculus with 9 samples.

Results

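The genes described here are 10 genes of the ATF4 stress response, followed by RNA-Seq in the mouse prostate cancer line MyC-CaP treated with recombinant asporin (ASPN). They are the transcription factor gene Atf4, the transcription factor and regulator genes Ddit3 and Trib3, the metabolic genes Asns, Psat1, Phgdh and Chac1, the mTORC1 regulators Ddit4 and Sesn2, and the secreted factor gene Gdf15. They were chosen by name, as rows of the deposited count table, and all 10 were found among its 15384 genes. MyC-CaP came from a prostate tumor of a mouse that carries a human c-MYC transgene under a probasin promoter active in prostate epithelium, and ASPN is a small proteoglycan that stromal fibroblasts secrete. Cells of this 1 line were starved without serum and calcium for 6 to 12 hours and then given recombinant ASPN at 100 ng/mL. RNA was taken at 0, 12 and 24 hours, from 3 libraries per time that are labeled as biological replicates. The labels name ASPN as the treatment of the earliest libraries too, and these served as the start of the course. None of the 9 libraries is of cells cultured for the same hours with no ASPN. The treatment and the time in culture therefore cannot be told apart in any comparison, including that of 24 with 12 hours. Whether replicates came from separate cultures beyond separate wells is not stated, so p-values measure the spread between these libraries.

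ATF4 is the central transcription factor of the integrated stress response. Kinases that sense a lack of amino acids, unfolded protein in the endoplasmic reticulum, double-stranded RNA or a lack of heme phosphorylate the initiation factor eIF2α, which lowers overall translation while the ATF4 mRNA is translated more, so that much of ATF4 control lies in translation, which mRNA counts do not measure. ATF4, often paired with a C/EBP family factor, then binds composite C/EBP-ATF elements near genes for amino acid synthesis and transport, redox control, feedback and cell death. In prostate cancer cells this pathway is known for keeping up amino acid supply and protein synthesis under stress.

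The promoters of the set were searched for the letters such elements share, because these letters are what ATF4 is known to recognize. RefSeq windows from 250 bases before to 50 bases after the transcription start (GRCm38.p6) existed for all 10 genes, 12 windows in all, and were searched on both strands for a core of a C/EBP-ATF response element, TGATGNAA, and for a related ATF/CRE-like core, TGACGNAA. These motifs were chosen after the windows had been seen. In the lines that follow, each sequence runs 5′ to 3′ on the strand of its gene and the capitals mark the core or its reverse complement.
Trib3 (chr2:152344028-152344057, minus strand): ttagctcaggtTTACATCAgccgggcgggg
Asns (chr6:7693214-7693243, minus strand): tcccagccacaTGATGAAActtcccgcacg
Chac1 (chr2:119351038-119351067, plus strand): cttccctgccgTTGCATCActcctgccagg
Chac1, ATF/CRE-like core (chr2:119350992-119351010, plus strand): TGACGCAAtctgactcgcc
The Trib3 core lay 14 to 21 bases after the RefSeq start, and the Asns core lay 23 to 16 bases before it. GENCODE M21 places the starts of both genes elsewhere, at 152344032 for Trib3 and 7693254 for Asns, so by that annotation the Trib3 core lies before the start and the Asns core after it. In Chac1 the C/EBP-ATF core lay 193 to 186 bases before the start and the ATF/CRE-like core lay 250 to 243 bases before it. Thus 3 of the 12 windows, from 3 of the 10 genes, held the C/EBP-ATF core, a sequence present in 3.97% of all 32851 windows of this length. The window of Chac1 alone held the ATF/CRE-like core, present in 1.59% of all windows. The letters of an ER stress element, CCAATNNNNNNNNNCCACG, were found in 0.119% of all windows and in none of the set. The other 7 genes held neither core in these windows, which says nothing of sites outside them.

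Total counts were 41881191 to 52993821 per library. As to cell identity, the luminal keratin gene Krt8 was at 24.8 to 42.3 CPM, whereas Epcam had 1 count over the 9 libraries, Cdh1 at most 10 and Krt18 at most 22 counts in any library, so these defining markers of epithelium were near 0. Of the marker genes of other cells, the fibroblast gene Pdgfra was at 8.58 to 13.8 CPM, and the immune and endothelial lists summed to at most 0.814 and 0.125 CPM. The basal list summed to 0.0857 to 0.165 CPM at time 0, 0.215 to 0.372 CPM at 12 hours and 0.539 to 0.907 CPM at 24 hours, and Col1a2, Lum, Ptprc and Kdr were not analysed here. Mitochondrially encoded genes took 2.60% to 2.85% of counts at time 0 and 12 hours but 0.113% to 0.203% at 24 hours, and the 10 most abundant genes took 7.51% to 8.02% and 9.81% to 10.2%. These shifts move with every 24-hour result given here, and their part in those results was not tested. In bulk RNA, fewer expressing cells and less RNA per cell cannot be told apart.

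Counts were scaled to CPM, the counts of a gene relative to the scaled library total, with TMM factors. A gene was called changed where edgeR's quasi-likelihood test reached 0.05 after Benjamini-Hochberg adjustment over all genes tested and the level differed at least 1.5-fold, which is 0.585 on the log2 scale. Expressed per kilobase of exon, the order of the 10 genes at time 0 was Ddit4 (283 CPM per kb), Phgdh (210), Psat1 (127), Atf4 (105), Asns (53.1), Trib3 (10.9), Chac1 (6.59), Sesn2 (6.19), Ddit3 (3.96) and Gdf15 (0.0633), as means of 3 libraries. Only Chac1 and Sesn2 were neighbors in this order whose libraries overlapped. The order at 12 hours was the same, with overlap between Ddit4 and Phgdh and again between Chac1 and Sesn2. At 24 hours, Phgdh (316 CPM per kb) and Ddit4 (314) overlapped in the first places, Atf4 (251) had passed Psat1 (190) with no overlap between their libraries, and Sesn2 (10.5) and Chac1 (9.53) overlapped.

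**Figure D1:**
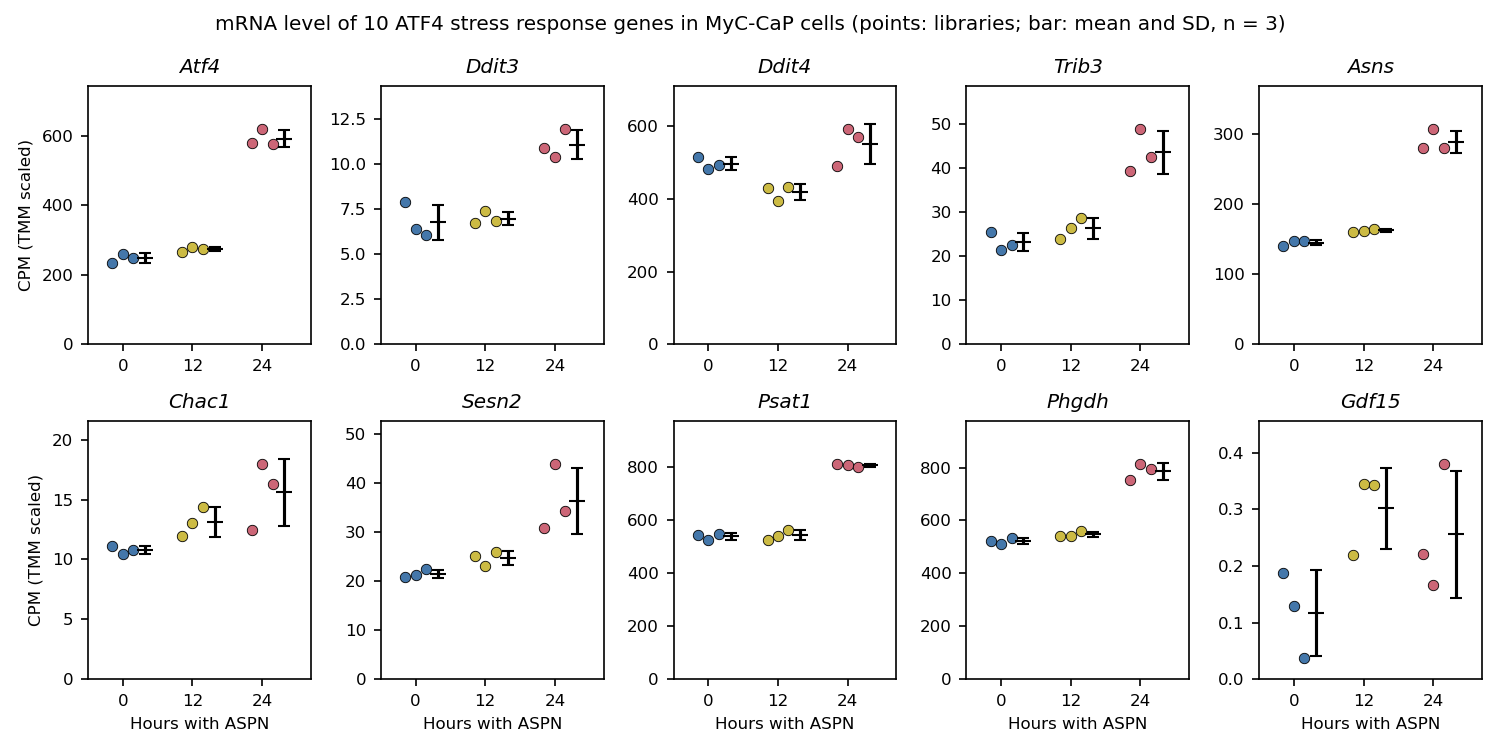
Level of each of the 10 genes in CPM with TMM scaling (vertical axes from 0, 1 scale per gene) against hours with ASPN, where points are libraries in the order of replicates 1 to 3 and the bar is the mean and SD (n = 3). Atf4, Asns, Psat1 and Phgdh differ little between 0 and 12 hours, and all 4 lie higher at 24 hours. The 12-hour libraries of Atf4, Asns and Phgdh lie slightly above those of time 0. Ddit4 dips at 12 hours, and Gdf15 stays under 0.4 CPM.

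At 12 hours with ASPN, none of the 10 genes was called in comparison with time 0. Across all genes, 182 of 11410 tested were called (1.60%), 171 of them higher. By the adjusted p alone, 4 of the 10 were higher (Atf4, Asns, Chac1 and Sesn2) and 1 was lower (Ddit4), where 6.85% of all genes were higher and 3.47% were lower by this criterion. Their median log2 fold change was 0.157 over the 10 genes, Gdf15 included, and -0.005 over all genes tested. The changes of the 4 higher genes were small, between 1.11-fold for Atf4 and 1.22-fold for Chac1. At 24 hours, 6 of the 9 genes tested were called higher than time 0, none was called lower, and all 9 passed the adjusted p with a higher level. Of all 11444 genes tested, 12.0% were called higher, 16.8% were called lower and 34.4% were higher by the adjusted p alone. The median log2 fold change was 0.714 over the 9 genes and -0.016 over all genes. Gdf15, the tenth gene, was removed by the filter on low counts in this comparison. The comparisons of 12 and of 24 hours share the libraries of time 0, so they are not independent of each other.

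The direct comparison of 24 with 12 hours used the 6 libraries with ASPN, and asked which genes differed between the later and the earlier time. Atf4, Ddit3, Trib3, Asns and Psat1 were called higher at 24 hours, which is 5 of 10, and 9 of 10 were higher by the adjusted p alone. Over all 11394 genes tested, 10.4% were called higher, 15.3% were called lower and 35.7% were higher by the adjusted p alone. The median log2 fold change was 0.584 over the 10 genes and 0.004 over all genes.

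**Figure D2:**
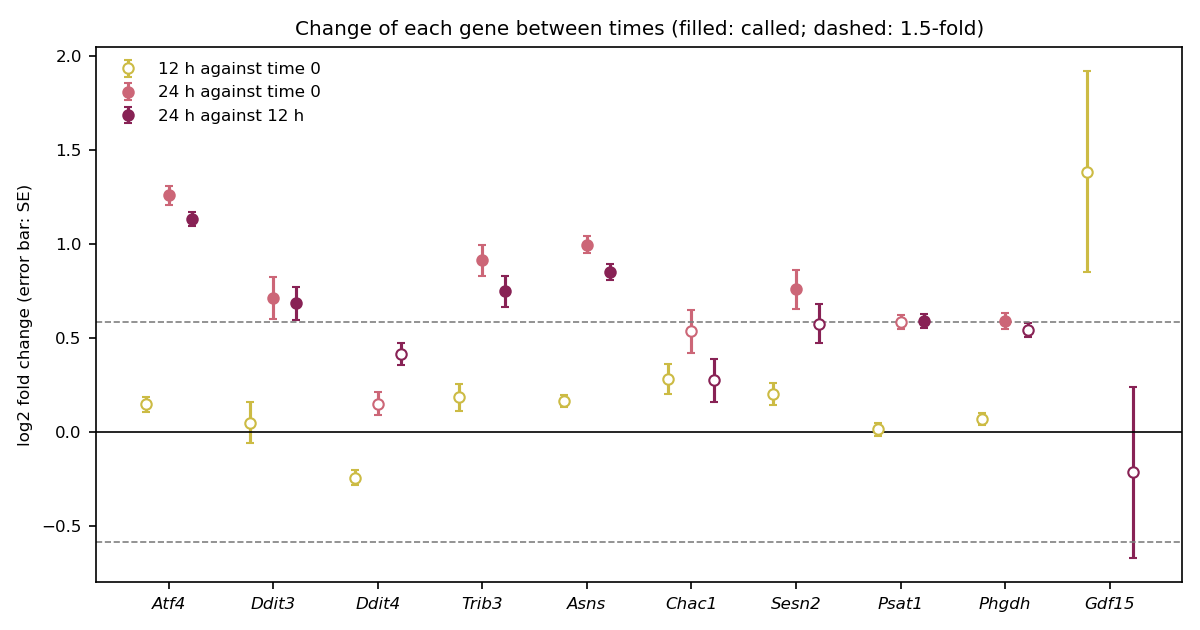
Log2 fold change (vertical axis, error bars are SE) of each gene in the 3 comparisons, from edgeR fits of 6 libraries each. Filled points are called, open points are not, and dashed lines mark 1.5-fold. No point of 12 against 0 hours is filled, and Atf4 has the highest filled points of both comparisons with 24 hours, at 1.26 and 1.13.

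Atf4 itself encodes the transcription factor, on chr15:80255184-80257541 (GRCm38, plus strand). Atf4 was at 233, 261 and 248 CPM in replicates 1 to 3 of time 0, at 267, 279 and 274 CPM at 12 hours and at 578, 619 and 575 CPM at 24 hours. Each library of 12 hours lay just above those of time 0, and the 24-hour libraries lay far above both. The mean rose from 247 ± 14.0 CPM (SD, n = 3) to 591 ± 24.5 CPM (SD, n = 3) at 24 hours, 2.39-fold, or 1.26 ± 0.050 on the log2 scale (SE, adjusted p = 2.5e-10). At 12 hours the log2 fold change was 0.15 ± 0.038 (SE, adjusted p = 0.018), and between 12 and 24 hours it was 1.13 ± 0.038 (SE, adjusted p = 7.4e-11). Of all genes tested, 98.1% had a lower log2 fold change than Atf4 at 24 hours.

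Ddit3 encodes CHOP, a C/EBP family factor that ATF4 induces and that can promote cell death under prolonged stress. Ddit3 was at 7.88, 6.39 and 6.07 CPM at time 0, at 6.74, 7.40 and 6.84 CPM at 12 hours and at 10.9, 10.4 and 12.0 CPM at 24 hours. Times 0 and 12 hours overlapped, and all 24-hour libraries lay above both. Its log2 fold change was 0.05 ± 0.11 (SE, adjusted p = 0.85) at 12 hours and 0.71 ± 0.11 (SE, adjusted p = 6.5e-05) at 24 hours, and 0.69 ± 0.088 (SE, adjusted p = 1.1e-05) between them. The calls at 24 hours were lost once transcript length and GC content were corrected for, with log2 fold changes of 0.37 against time 0 (adjusted p = 0.0069) and 0.31 against 12 hours (adjusted p = 0.0044). In the annotation, exons of Ddit3 (chr10:127290774-127296288, plus strand) share 68 bases with Mars on the opposite strand, 13 with Gm4189 on the opposite strand and 105 with a second gene model of the same name, and the strand setting of the counting is not given in the sources used here, so its counts are less certain than those of the others.

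Trib3 encodes a pseudokinase that is induced by ATF4 and CHOP and acts back on ATF4 as an inhibitor. The levels were 25.5, 21.4 and 22.5 CPM at time 0, 23.9, 26.2 and 28.7 CPM at 12 hours and 39.2, 48.8 and 42.5 CPM at 24 hours. Libraries of time 0 and 12 hours overlapped, and those of 24 hours stood above both. The log2 fold change was 0.19 ± 0.072 (SE, adjusted p = 0.13) at 12 hours, and Trib3 rose by 24 hours, by 0.91 ± 0.084 (SE, adjusted p = 4.2e-07) against time 0 and by 0.75 ± 0.081 (SE, adjusted p = 2.3e-06) against 12 hours on the log2 scale. The call against 12 hours was lost with scaling by total counts (0.53) and with edgeR's glmTreat, which tests the fold itself. The C/EBP-ATF core of the Trib3 promoter window is printed above.

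Among the enzymes of amino acid supply, Asns encodes asparagine synthetase, which makes asparagine from aspartate and glutamine. Asns was at 141, 147 and 148 CPM at time 0, at 161, 162 and 165 CPM at 12 hours and at 280, 308 and 281 CPM at 24 hours. The 3 times did not overlap and followed each other in level. The log2 fold change was 0.17 ± 0.032 (SE, adjusted p = 0.0021) at 12 hours, 1.00 ± 0.047 (SE, adjusted p = 9.3e-10) at 24 hours and 0.85 ± 0.041 (SE, adjusted p = 9.5e-10) between them. Asns was thus second to Atf4 among the 9 genes tested at 24 hours, with 1.99 times the level of time 0 by the ratio of means.

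Phgdh encodes phosphoglycerate dehydrogenase, the first enzyme of serine synthesis from glucose, and Psat1 encodes the aminotransferase of its next step. Phgdh was at 522, 512 and 532 CPM at time 0, at 541, 541 and 559 CPM at 12 hours and at 752, 814 and 793 CPM at 24 hours. Psat1 was at 543, 525 and 550 CPM at time 0, at 526, 542 and 563 CPM at 12 hours and at 814, 809 and 802 CPM at 24 hours. Both genes stood clearly higher in every 24-hour library, by about the 1.5-fold of the threshold. For Phgdh the log2 fold change at 24 hours was 0.59 ± 0.043 (SE, adjusted p = 4.3e-08), which passed, and for Psat1 it was 0.5848 ± 0.039 (SE, adjusted p = 2.1e-08), which missed by less than its error. Against 12 hours the sides were exchanged, with 0.54 ± 0.037 (SE, adjusted p = 2.5e-08) for Phgdh and 0.59 ± 0.035 (SE, adjusted p = 7.0e-09) for Psat1. The call of Phgdh against time 0 was lost without replicate 2 of time 0 (log2 fold change 0.58) or without replicate 2 of 24 hours (0.57), and Psat1 passed against time 0 without replicate 1 (0.61) or 3 (0.61) of time 0 or replicate 3 of 24 hours (0.59). Against 12 hours, the call of Psat1 was lost without replicate 1 of 12 hours (0.57) or replicate 1 of 24 hours (0.58). Over all such omissions, the log2 fold change against time 0 stayed between 0.566 and 0.623 for Phgdh and between 0.572 and 0.611 for Psat1. At 12 hours, the log2 fold changes were 0.07 ± 0.032 for Phgdh (SE, adjusted p = 0.21) and 0.02 ± 0.034 for Psat1 (SE, adjusted p = 0.85). The 12-hour libraries of Phgdh lay just above those of time 0, whereas those of Psat1 overlapped them.

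Chac1 encodes a glutathione-degrading enzyme that ATF4 and CHOP induce. Its levels were 11.1, 10.4 and 10.8 CPM at time 0, 11.9, 13.0 and 14.4 CPM at 12 hours and 12.5, 18.0 and 16.3 CPM at 24 hours. All libraries with ASPN lay above those of time 0, but the libraries of 12 and 24 hours overlapped. For Chac1 the log2 fold change was 0.28 ± 0.082 (SE, adjusted p = 0.035) at 12 hours, 0.54 ± 0.11 (SE, adjusted p = 9.4e-04) at 24 hours and 0.28 ± 0.12 (SE, adjusted p = 0.047) between them, none of which reached 1.5-fold. Without replicate 1 of 24 hours, its lowest library, Chac1 was called higher than time 0 (log2 fold change 0.67).

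Sesn2 and Ddit4 encode inhibitors of mTORC1, the kinase complex that couples growth to nutrients: sestrin 2 is a leucine sensor that acts through the GATOR complexes, and DDIT4 (REDD1) acts through TSC1 and TSC2. Sesn2 was at 20.9, 21.2 and 22.4 CPM at time 0, at 25.2, 23.1 and 25.9 CPM at 12 hours and at 30.9, 43.9 and 34.3 CPM at 24 hours. The times did not overlap, and replicate 2 of 24 hours stood above the other two. The log2 fold change of Sesn2 was 0.20 ± 0.058 (SE, adjusted p = 0.032) at 12 hours, 0.76 ± 0.10 (SE, adjusted p = 1.8e-05) at 24 hours, which was called, and 0.58 ± 0.10 (SE, adjusted p = 2.1e-04) between them, just under 1.5-fold. This last comparison passed without replicate 1 of 12 hours (0.59), replicate 3 of 12 hours (0.61), replicate 1 of 24 hours (0.68) or replicate 3 of 24 hours (0.62).

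Ddit4 had a different course. It was at 516, 481 and 493 CPM at time 0, at 430, 394 and 432 CPM at 12 hours and at 490, 592 and 572 CPM at 24 hours. All 12-hour libraries lay below those of the other times, and times 0 and 24 hours overlapped. Its log2 fold change was -0.24 ± 0.040 (SE, adjusted p = 5.0e-04) at 12 hours, 0.15 ± 0.062 (SE, adjusted p = 0.040) at 24 hours and 0.42 ± 0.060 (SE, adjusted p = 3.5e-05) between 12 and 24 hours, none of them past 1.5-fold. By the adjusted p alone, Ddit4 was lower at 12 hours while Atf4, Asns, Chac1 and Sesn2 were higher. At 24 hours it had the lowest log2 fold change of the 9 genes tested, and 62.6% of all genes had a lower one. The sign of its difference from time 0 at 24 hours turned with scaling by total counts (log2 fold change -0.07, adjusted p = 0.30).

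Gdf15 encodes a secreted TGF-β family factor that ATF4 and CHOP induce in stressed cells. It was near the detection limit, with 9, 6 and 2 counts at time 0, 10, 16 and 15 counts at 12 hours and 9, 8 and 18 counts at 24 hours, where 3 counts correspond to 0.0566 to 0.0716 CPM. Counts at 12 hours lay above those of time 0 without overlap, and those at 24 hours overlapped both. For Gdf15 the log2 fold change was 1.38 ± 0.53 (SE, adjusted p = 0.13) at 12 hours and -0.21 ± 0.46 (SE, adjusted p = 0.69) between 12 and 24 hours. Gdf15 passed the filter on low counts only where the 12-hour libraries entered, so both values rest on the group where it is high. Against time 0 at 24 hours it was fitted only where the filter was changed, for instance 1.13 ± 0.70 (SE, adjusted p = 0.18) with no filter on low counts. A change of Gdf15 was not detectable at this depth.

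The 24-hour values depended on how libraries were scaled. TMM factors were 1.04 to 1.07 at time 0 and 0.898 to 0.911 at 24 hours. With total counts in place of TMM factors, the median of all genes at 24 hours moved from -0.016 to -0.238, the calls over all genes moved from 1374 higher and 1924 lower to 698 higher and 3008 lower, and 3 genes of the set stayed called against time 0 (Atf4 1.04, Asns 0.77 and Trib3 0.69). Ddit3 (0.49), Sesn2 (0.54) and Phgdh (0.37) then fell under 1.5-fold. Relative to that median, the log2 differences were 1.27 for Atf4, 1.01 for Asns, 0.93 for Trib3, 0.78 for Sesn2, 0.73 for Ddit3, 0.61 for Phgdh, 0.60 for Psat1, 0.55 for Chac1 and 0.17 for Ddit4. Against 12 hours, total counts left Atf4 (0.91) and Asns (0.63) called, while Trib3 (0.53), Ddit3 (0.46) and Psat1 (0.37) fell under 1.5-fold. Over all genes, 484 of 11394 were called higher there. Correcting for transcript length and GC content left 5 of the 6 called against time 0, with Sesn2 at 0.96, Trib3 at 0.99 and Ddit3 alone lost. Over all genes, 1349 of 11444 were called higher with this correction. Against 12 hours it gave 4 of 10 genes of the set called higher, and 1051 of all 11394 genes. Scaling without the 13 mitochondrial genes left 6 called against time 0, with 1370 of all genes called higher. Against time 0, 7 of 10 genes tested were called higher with DESeq2, and 7 of 9 with RLE or upper-quartile factors. Over all genes, 1420, 1430 and 1510 were called higher with these 3 settings. Against 12 hours, 5 of 10 were called with DESeq2 or RLE factors and 6 of 10 with upper-quartile factors. Over all genes, 1164 of 12920 were called higher there with DESeq2. With RLE and upper-quartile factors, 1167 and 1310 of 11394 were.

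**Figure D3:**
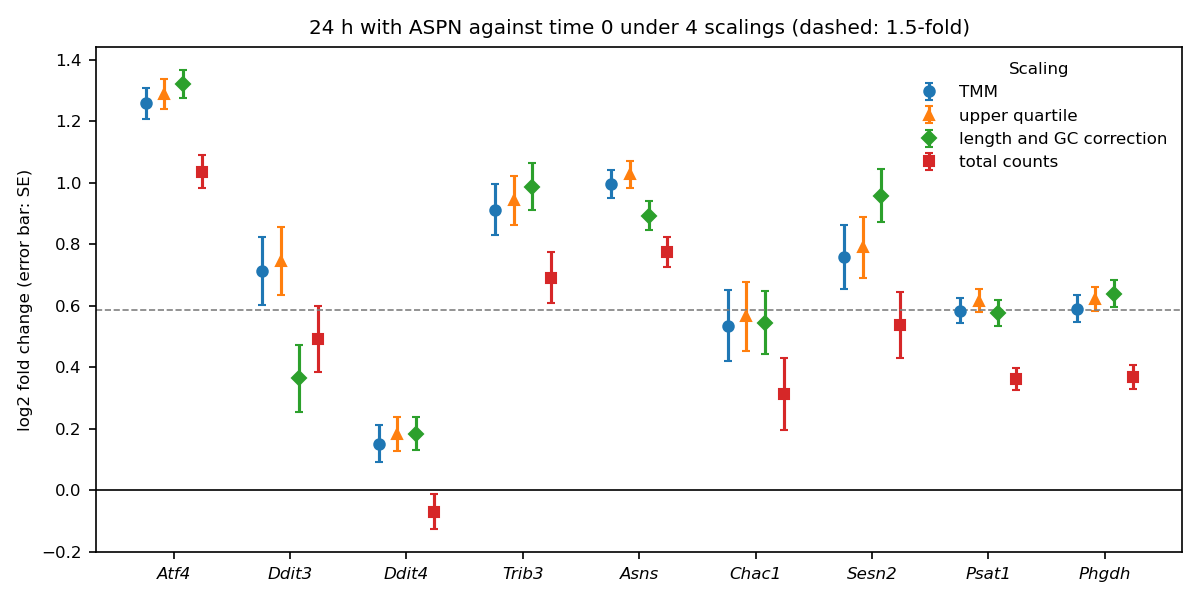
Log2 fold change (vertical axis, error bars are SE) of the 9 genes tested at 24 hours against time 0 with 4 ways of scaling the libraries, marked by symbol. The dashed line marks 1.5-fold. Total counts shift every gene down, Ddit4 to below 0, and the length and GC correction moves Ddit3 from 0.71 to 0.37.

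In replicate 1 of 24 hours, 6 of the 10 genes had their lowest level of the 24-hour group, and in replicate 2, 7 of the 10 had their highest. Leaving out each library in turn gave 5 to 7 genes called at 24 hours against time 0, 5 to 6 against 12 hours and 0 at 12 hours against time 0. Across the 9 libraries, the log2 CPM of Asns (Pearson's r 0.997), Phgdh (0.991), Psat1 (0.985), Trib3 (0.953), Ddit3 (0.924) and Sesn2 (0.922) followed that of Atf4 most, Chac1 (0.748) and Ddit4 (0.636) less and Gdf15 (0.291) least. These libraries form groups by time and share their scaling, so the coefficients are a description only. The genes outside the set with the pattern most like that of Atf4, among 10348 with a mean of at least 50 counts, were Actr3 (r 0.9987), Arih2 (0.9985) and Myl12a (0.9981), with means of 160, 67.1 and 218 CPM at time 0, 171, 71.1 and 231 CPM at 12 hours and 304, 112 and 389 CPM at 24 hours.

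The other genes of the pathway were taken from lists by role, and their calls are read against the shares of all genes given above. At 24 hours against time 0, these shares were 12.0% higher and 16.8% lower. With total counts, 698 of 11444 genes were higher and 3008 were lower. Upstream of ATF4, the 4 eIF2α kinases had no call at 12 hours. At 24 hours against time 0, 2 of 4 were called lower and none higher, and the list had a median of -0.561 in log2 fold change (3 lower and none higher with total counts). Eif2ak3, which encodes PERK, the kinase of the endoplasmic reticulum, fell from 34.2 ± 1.08 to 14.9 ± 1.14 CPM (SD, n = 3, log2 fold change -1.20 ± 0.068 SE, adjusted p = 4.1e-09). Eif2ak4, which encodes the amino acid sensor GCN2, fell from 113 ± 5.12 to 66.9 ± 3.61 CPM (SD, n = 3, -0.76 ± 0.051 SE, adjusted p = 2.1e-08), a call that was lost with the length and GC correction (-0.55). Both were also lower at 24 than at 12 hours, at -1.13 and -0.68.

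Of 10 genes for eIF2, its exchange factor eIF2B and the subunits that direct its phosphatase, none was called at 12 hours, and 4 were called higher and none lower at 24 hours against time 0 (median 0.499). Ppp1r15a, which encodes GADD34, the inducible phosphatase subunit that removes phosphate from eIF2α, rose from 31.9 ± 0.272 to 74.4 ± 2.61 CPM (SD, n = 3, log2 fold change 1.22 ± 0.047 SE, adjusted p = 2.0e-10). The eIF2 subunit genes Eif2s2 (1.00), Eif2s3x (0.84) and Eif2s1 (0.60) were called higher too, the last losing its call with total counts (0.38) and with the length and GC correction (0.42). Ppp1r15b, the constitutive counterpart of Ppp1r15a, stood at -0.56 ± 0.046 (SE) in log2 fold change against time 0, short of 1.5-fold, and was called lower against 12 hours (-0.65). With total counts, 3 of the 10 were called higher and 2 lower against time 0 (median 0.277).

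The 7 genes for partner factors and cofactors were the list with calls at 12 hours, with 3 higher and none lower. Cebpd, for a C/EBP factor, rose from 23.9 ± 0.291 to 58.4 ± 2.79 CPM (SD, n = 3, log2 fold change 1.30 ± 0.046 SE, adjusted p = 3.0e-12) and stood at 52.8 ± 2.84 CPM (SD, n = 3) at 24 hours. Atf3, for a repressor that ATF4 induces, moved by 0.77 ± 0.058 (SE) in log2 by 12 hours and by 1.99 ± 0.096 (SE) by 24 hours. Nupr1, for a stress-induced chromatin cofactor, moved by 0.74 ± 0.069 (SE) and 2.00 ± 0.069 (SE). Nupr1 thus went from 16.7 to 27.9 to 66.9 CPM and Atf3 from 17.9 to 30.5 to 71.1 CPM, as means of 3 libraries. Against 12 hours, Atf3 (1.24) and Nupr1 (1.28) were called higher at 24 hours. At 24 hours against time 0, the count was again 3 higher and none lower of 7, with a median of 0.445.

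Serine and one-carbon genes gave no call at 12 hours, and 2 higher and 1 lower of 7 at 24 hours against time 0 (median 0.562). The mitochondrial folate enzyme gene Mthfd2 rose from 80.4 ± 3.09 to 178 ± 12.8 CPM (SD, n = 3, log2 fold change 1.15 ± 0.054 SE, adjusted p = 9.8e-10) and Aldh1l2, for another mitochondrial folate enzyme, had 1.08 ± 0.10 (SE). Shmt1, for the cytosolic serine hydroxymethyltransferase, fell from 101 ± 1.15 to 66.3 ± 1.13 CPM (SD, n = 3, -0.61 ± 0.041 SE), a call lost with upper-quartile factors (-0.58) and, by a small margin, with the length and GC correction (-0.585). With upper-quartile factors or the length and GC correction, 4 of the 7 were called higher at 24 hours. Against 12 hours, Psph (0.70), the last enzyme of serine synthesis, was called as well, with 3 higher and 1 lower of 7. The 6 genes for other amino acid enzymes had no call against time 0 at either time (median 0.268 at 24 hours), the most abundant being Aldh18a1 (0.27 ± 0.047 SE) and Gpt2 (0.43 ± 0.040 SE), and Cth was called higher against 12 hours (0.61), a call lost with total counts (0.39), with the length and GC correction (0.34) and with glmTreat.

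Of 8 amino acid transporter genes, none was called at 12 hours. At 24 hours against time 0, 1 was called higher, where 12.0% of all genes were. Slc3a2, the heavy chain shared by several amino acid exchangers, rose from 313 ± 6.77 to 521 ± 19.5 CPM (SD, n = 3, log2 fold change 0.73 ± 0.042 SE, adjusted p = 4.8e-09), and fell under 1.5-fold with total counts (0.51). The median of the list was -0.111, with the length and GC correction 2 transporters were called higher, and with total counts none was called higher and 2 were called lower (median -0.332). Of 5 further output genes 3 were tested at 24 hours, and 2 were called higher. Fgf21, a secreted hormone gene, had 3 to 14 counts at time 0 and 34 to 44 counts at 24 hours (log2 fold change 2.36 ± 0.46 SE, adjusted p = 4.1e-04), and Sqstm1, for the autophagy receptor p62, had 0.70 ± 0.053 (SE; 0.47 with total counts, not called). At 12 hours 2 of these genes were tested and neither was called. Fgf21, with 3 to 11 counts at 12 hours, was not tested there. It passed the filter on low counts only where the 24-hour libraries entered, so its call rests on the group where it is high. Stc2 and Vldlr were not analysed here.

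Of 4 paralogs of the set that were tested, 2 were called lower at 24 hours against time 0 and none higher (median -0.683), 3 were called lower with total counts, and none was called at 12 hours. Trib1, a relative of Trib3, fell from 99.1 ± 3.81 to 30.8 ± 2.14 CPM (SD, n = 3, log2 fold change -1.68 ± 0.056 SE, adjusted p = 6.4e-11), and Sesn1, a relative of Sesn2 known as a p53 target, fell from 106 ± 2.16 to 57.9 ± 5.01 CPM (SD, n = 3, -0.87 ± 0.057 SE).

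Genes of the chaperone and quality control arm of the endoplasmic reticulum, which XBP1 and ATF6 control, were lower more often than higher at 24 hours against time 0, with 7 called lower and 1 higher of 19 (median -0.353), or 9 lower and none higher with total counts (median -0.575). Sel1l (-1.18 ± 0.060 SE), Syvn1 (-1.09 ± 0.057 SE), Dnajb9 (-1.03 ± 0.076 SE) and Hyou1 (-0.79 ± 0.061 SE) had the lowest log2 fold changes, and the last lost its call with the length and GC correction (-0.57). Herpud1, which ATF4 can also induce, was the gene called higher (0.67 ± 0.048 SE), and fell under 1.5-fold with total counts (0.45). The chaperone genes Hspa5 and Hsp90b1 had log2 fold changes of 0.09 ± 0.045 (SE, adjusted p = 0.098) and 0.04 ± 0.040 (SE, adjusted p = 0.39), and these and Herpud1 are named after their values were seen. None of the 19 was called at 12 hours.

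In the list of mTORC1 subunits and regulators, on which Sesn2 and Ddit4 act, none of 12 was called at 12 hours. At 24 hours against time 0, 3 were called lower and none higher (median -0.357), where 16.8% of all genes were called lower. The 3 genes were Mtor (-0.86 ± 0.061 SE), Mios (-0.70 ± 0.077 SE) and Rptor (-0.62 ± 0.059 SE). With the length and GC correction, Mtor (-0.51) and Rptor (-0.28) lost their calls and the median was -0.098. With total counts, 6 of 12 were called lower (median -0.579), as were 3008 of all 11444 genes. Of 6 p53 target genes, some of which stress also induces without p53, Cdkn1a was called higher at 24 hours (1.62 ± 0.096 SE), Trp53inp1 (-1.57 ± 0.085 SE) and Zmat3 (-0.96 ± 0.073 SE) were called lower, and the median of 0.147 turned to -0.075 with total counts. None of the 6 was called at 12 hours.

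**Figure D4:**
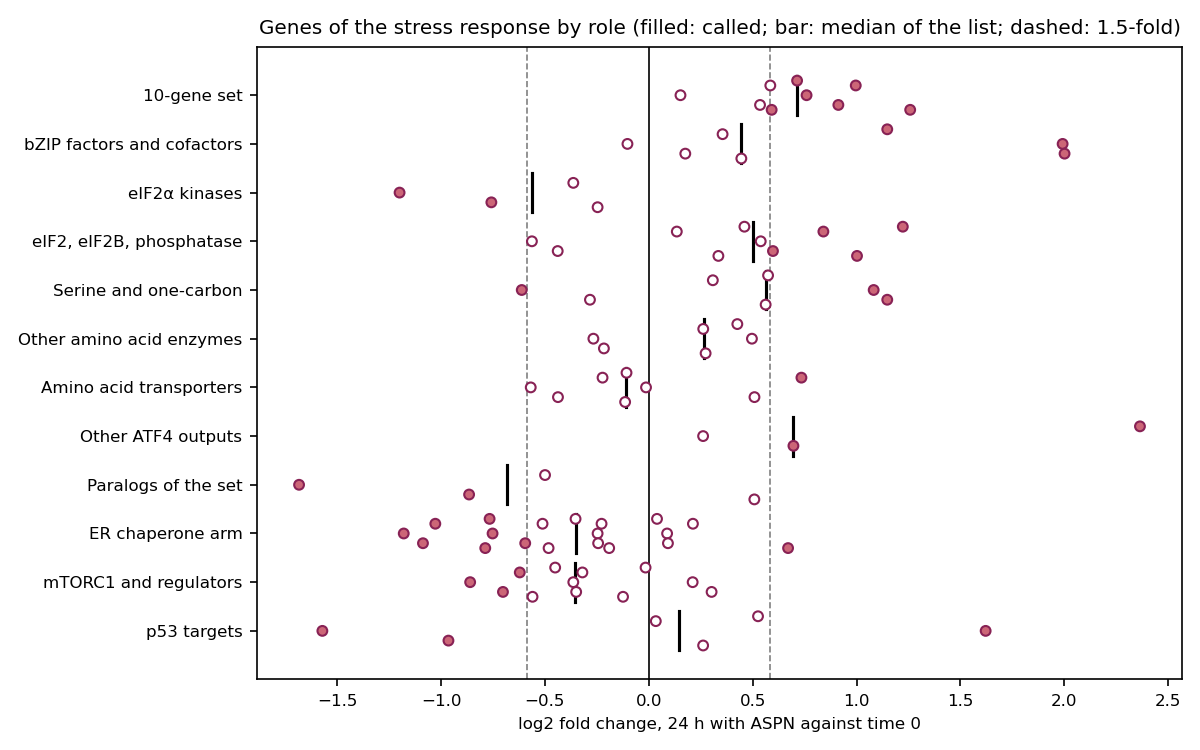
Log2 fold change at 24 hours against time 0 (horizontal axis) of the tested genes by role (vertical axis), where filled points are called, open points are not, vertical bars are list medians and dashed lines mark 1.5-fold. The 9 genes of the set all lie above 0, while the eIF2α kinases all lie below 0 and the ER chaperone arm has 7 of 19 called lower.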

How the data were processed

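RNA-Seq gene counts of 9 MyC-CaP libraries were used. The authors prepared TruSeq mRNA libraries, sequenced paired-end 150 bp reads, trimmed them with Cutadapt 4.5, aligned them with STAR 2.7.11a to GRCm38.p6 and counted them per gene with featureCounts 2.0.2, as their methods and processing notes state. The deposited values are raw counts, before normalization. Total counts were 41881191 to 52993821 per library, and the floor of 3 counts covers counting error only. SD is the spread between libraries, and SE comes from the edgeR fits, which include that spread. The genes and lists were chosen with earlier results of these data known.

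Each of 3 comparisons was fitted on its 6 libraries over the whole table in R 4.3.3 with edgeR 4.0.16 (filterByExpr, TMM factors, quasi-likelihood test, no block). CPM values were TMM scaled over 9 libraries. Gene positions, exon lengths and GC content came from GENCODE M21, in which 15374 of 15384 genes matched by identifier. Promoters came from RefSeq. No library was a copy of another: within a time, the chi-square between their counts was 3.48 to 18.2 per degree of freedom. Named list genes were, for each list and comparison, all called genes up to 3, otherwise at most the 4 with the largest change, and for lists with no call the 1 or 2 most abundant, and names outside this rule are marked in the text. Alternatives were DESeq2 1.42.0, limma-voom (limma 3.58.1), RLE, upper-quartile and total-count scaling, scaling without mitochondrial genes, 2 other filters, all 9 libraries in one fit, a replicate block, a length and GC correction (loess span 0.3) with and without the block, the adjusted p alone, glmTreat and leaving out each library. The calculations were tested on simulated data. Some marker genes are not reported here.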

Additional observations from a re-analysis of the deposited data

Results flagged for a closer look

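The change with time differed between 12 and 24 hours for 5 of the 10 genes, by the direct test of 24 against 12 hours in edgeR. The log2 fold change between these times was 1.13 for Atf4, 0.69 for Ddit3, 0.75 for Trib3, 0.85 for Asns and 0.59 for Psat1. For Ddit3, Trib3 and Psat1 this call was lost with total counts and with glmTreat. Ddit3 and Psat1 also lost it in other alternatives, as given beside their values. Over all genes, 10.4% were called higher in the same comparison.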

How the results depend on the processing

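Precision is limited by 3 libraries per time and, for Gdf15, by depth. No gene of the set was called at 12 hours under any alternative that keeps the fold threshold. With the adjusted p alone, 1178, 8119 and 8124 genes and 5, 9 and 9 of the set passed for 12 hours against time 0, 24 hours against time 0 and 24 against 12 hours. With edgeR's glmTreat at 1.5-fold, which tests the fold itself, 88, 2101 and 1768 genes were called, and 0, 3 and 2 of the set. With total counts, 3 of the set were called at 24 hours against time 0 and 2 against 12 hours, where 698 and 484 of all genes were called higher. The sign turned with total counts for Psat1 at 12 hours (-0.004) and Ddit4 at 24 hours against time 0 (-0.069). The cause was not tested. Leaving out 1 library gave log2 fold changes of -0.011 to 0.038 for Psat1 and -0.028 to 0.173 for Ddit3 at 12 hours, and -0.63 to 0.033 for Gdf15 between 12 and 24 hours. The numbers of all genes called ranged from 148 to 198, 3248 to 3312 and 2871 to 3003, and those of the set from 0 to 0, 5 to 7 and 5 to 6.

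Replicate numbers gave no evidence of pairing, with correlations of deviations from -0.102 to 0.057 and 1 of 9 libraries closest to its own number. With the replicate block, 172, 3247 and 2926 genes and 0, 7 and 5 of the set were called. For Psat1 at 24 hours against time 0, the log2 fold change was 0.585 with the block, at the threshold, and 0.5848 without it, just under the threshold.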
